A study of Mus musculus with 12 samples.

Results

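Striated muscle miRNAs were followed through kidney libraries of neonatal mice. The 5 mature arms were taken by name from the deposited table: miR-1a-3p, miR-133a-3p, miR-133a-5p, miR-133b-3p and miR-206-3p. All 5 of the 5 were found among the 1652 names of the table. The study sequenced miRNAs of kidneys taken at day 0 and day 8 of the neonatal period, with 6 libraries at each age, in search of candidates that could regulate the mineralocorticoid receptor. Both ages are wild type (WT) and untreated, and the labels give no strain, sex, litter or pooling of animals, so p-values measure the spread between these libraries, part of which may be technical. Levels are in CPM, reads per 1000000 reads of the table in a library, and 1 read stands for 1 mature arm, so levels were not divided by length.

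miR-1 and miR-133 are made together from shared precursor transcripts in skeletal and heart muscle, where MyoD, Mef2 and serum response factor drive them. miR-1 promotes the differentiation of muscle cells, while miR-133 holds back serum response factor and favours the growth of myoblasts. miR-206 is known from skeletal muscle and its precursors, is close in sequence to miR-1 and is made beside miR-133b.

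The 2 members with a sequence in the RefSeq table (GRCm38.p6) are shown because they carry the seeds by which the 2 families select their targets. Each is written 5′ to 3′, with bases 2 to 8, the seed, in capitals.
miR-206-3p: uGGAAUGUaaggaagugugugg
miR-133b-3p: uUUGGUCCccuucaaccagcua
The first seed is that of the miR-1 family and the other that of the miR-133 family, and the arms share 1 of 7 seed bases. Both lie on the plus strand of chromosome 1, miR-206-3p at chr1:20679055-20679076 and miR-133b-3p at chr1:20682834-20682855. Their hairpins are 3686 bases apart, each in an exon of the lincRNA Gm28653 on the same strand (GENCODE M21). The hairpin Mir1a-1 lies on chromosome 2 at 180389048 to 180389124 and Mir133a-2 at 180398379 to 180398482, 9254 bases apart on the plus strand, and neither overlaps another annotated gene. miR-1a-3p and miR-133a-3p also come from further hairpins, and the near-identical miR-133a-3p and miR-133b-3p may have shared reads in a way that cannot be checked here.
The closeness of the miR-1 and miR-206 hairpins can be seen in their other arms, of which 20 of 23 bases are the same.
miR-206-5p: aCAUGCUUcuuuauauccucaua
miR-1a-1-5p: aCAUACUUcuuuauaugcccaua

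The libraries held 3.37 to 11.8 M miRNA reads (M, 1000000). On the second principal component of log2(CPM + 1), day 0 replicate 6 (-12.6) and day 8 replicate 3 (-6.46) stood apart from the other 10 libraries (-2.46 to 5.12). The 7 kidney miRNAs looked up, among them the tubule miRNAs miR-192-5p and miR-194-5p, were present in all libraries, with a summed level of 86209 to 100417 CPM at day 0 and 97713 to 118275 CPM at day 8. The 5 muscle arms together made up 0.0485% to 0.198% of the day 0 libraries and 0.0402% to 0.0497% of the day 8 libraries.

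At day 0 the kidney libraries held 32.0-fold more miR-206-3p, 3.90-fold more miR-133a-3p and 2.01-fold more miR-1a-3p than at day 8, as ratios of mean CPM. Across single day 0 libraries the 5 arms rose and fell in nearly the same order, while at day 8 miR-1a-3p stayed within a narrow range and miR-206-3p was nearly gone. The proportions between the arms differed between the ages as well. In whole tissue, fewer cells of a type and less RNA per cell cannot be told apart.

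**Figure D1:**
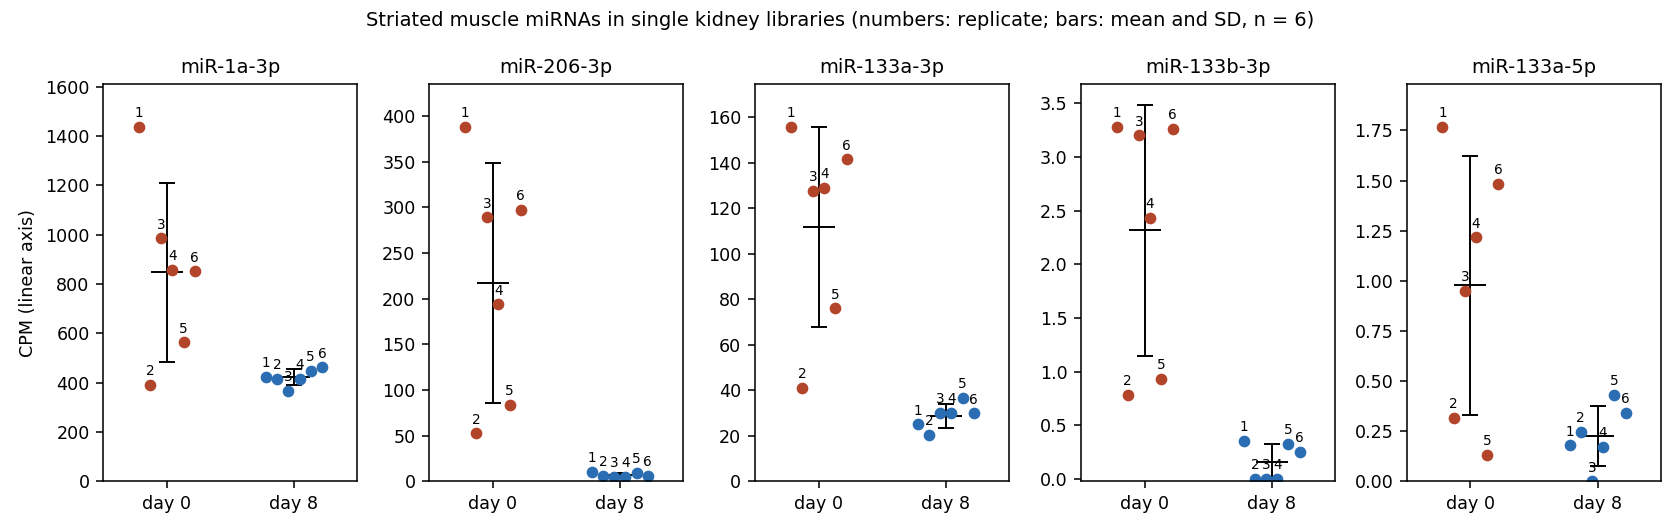
CPM of each arm (linear axes) in each library at day 0 (red) and day 8 (blue). Numbers are replicates, the long tick is the mean and bars are SD (n = 6). Day 0 replicate 1 is highest and replicates 2 and 5 are lowest for every arm, and the day 8 libraries lie close together.

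miR-206-3p, the skeletal muscle member of the miR-1 family, was at 388, 52.5, 289, 194, 83.4 and 297 CPM in day 0 replicates 1 to 6. It was at 10.1, 6.25, 4.65, 5.06, 9.07 and 5.60 CPM in day 8 replicates 1 to 6. Replicates 2 and 5 were far below the other day 0 libraries, yet even the lowest day 0 library lay above every day 8 library. The means were 217 ± 131 and 6.79 ± 2.26 CPM (SD, n = 6 at each age). The log2 change, from day 0 to day 8 on the scale of log2(CPM + 1), was -4.54 (SE 0.423), with a limma adjusted p of 2.9e-07. Between 334 and 3075 reads per library lay behind these values at day 0, and between 24 and 113 at day 8.

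miR-1a-3p, the abundant arm of miR-1, was at 1436, 390.4, 985, 857, 564 and 851 CPM in day 0 replicates 1 to 6. It was at 424, 416, 368, 416, 448 and 461 CPM in day 8 replicates 1 to 6. The groups overlapped, because day 0 replicate 2 lay within the day 8 range, whereas the other 5 day 0 libraries lay above it. The means were 847 ± 362 and 422 ± 32.5 CPM (SD, n = 6), a log2 change of -0.89 (SE 0.236) with a limma adjusted p of 0.00407. The call was lost when CPM was rescaled by TMM factors (log2 change -0.50, limma adjusted p = 0.0781), RLE factors (-0.47, 0.112) or upper quartile factors (-0.32, 0.227). On the recovered reads it was kept by edgeR (-0.62, adjusted p = 0.0337) and DESeq2 (-0.59, adjusted p = 0.0263).

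miR-133a-3p was at 156, 40.9, 127, 129, 75.9 and 141 CPM in day 0 replicates 1 to 6. It was at 25, 20.5, 30.1, 30.0, 36.5 and 29.9 CPM in day 8 replicates 1 to 6. Day 0 replicate 2 was close to the highest day 8 library, but the groups did not overlap. The means were 112 ± 43.9 and 28.6 ± 5.44 CPM (SD, n = 6), a log2 change of -1.82 (SE 0.279) with a limma adjusted p of 4.4e-05, and -1.44 with TMM factors.

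The 3 arms so far passed the filter of at least 1 CPM in at least 6 libraries, and all 3 were called lower, 2 of them without overlap. Of all 564 names that passed, 64.7% were called in either direction, 48.2% were called lower and 35.1% had every day 0 library above every day 8 library, so that being called lower is common in this comparison. The median log2 change was -1.82 over the 3 arms and -0.34 over all 564 names. The whole table was thus shifted downwards on this scale: limma called 93 names higher and 272 lower, but 171 higher and 193 lower with TMM factors (median -0.00) and 213 higher and 157 lower with upper quartile factors (median 0.14). All 3 arms lay below the median of all names under each of these scalings.

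The remaining members, miR-133b-3p and the passenger arm miR-133a-5p, did not reach the filter and have no row in the limma test. miR-133b-3p was at 3.28, 0.786, 3.20, 2.43, 0.934 and 3.26 CPM in day 0 replicates 1 to 6. At day 8 it was at 0.358, 0.324 and 0.255 CPM in replicates 1, 5 and 6, and no read was found in replicates 2, 3 and 4, where 3 reads would correspond to 0.367, 0.582 and 0.257 CPM. Even the lowest day 0 library exceeded the highest day 8 library (two-sided exact permutation p = 0.00216, the smallest that 924 assignments can give).

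miR-133a-5p was at 1.77, 0.315, 0.948, 1.22, 0.133 and 1.48 CPM in day 0 replicates 1 to 6. It was at 0.179, 0.245, 0, 0.172, 0.432 and 0.339 CPM in day 8 replicates 1 to 6, that is, on 0 to 4 reads per library. Day 0 replicates 2 and 5 lay within the day 8 range, and the other 4 lay above it (two-sided exact permutation p = 0.0325). The exact permutation p rose to between 0.0519 and 0.0649 when 1 library was left out, if that library was replicate 1, 3, 4 or 6 of day 0, or replicate 1, 2, 3 or 4 of day 8. On all libraries the same test gave 0.0130 for miR-1a-3p and 0.00216 for miR-206-3p and miR-133a-3p. Intervals and floors of reads cover counting error only.

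The order of the levels was the same in all 6 day 0 libraries for the abundant arms: miR-1a-3p first, then miR-206-3p, then miR-133a-3p. In day 0 replicate 5 the last pair was close, at 83.4 and 75.9 CPM. At day 8 miR-133a-3p was above miR-206-3p in all 6 libraries. miR-133b-3p followed, above miR-133a-5p in 6 of 6 day 0 libraries, while at day 8 both were at or near 0 and their ranges overlapped. Ranked by mean CPM among all names, miR-1a-3p went from place 101 to 117, miR-133a-3p from 214 to 273 and miR-206-3p from 173 to 364.

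The spread between libraries of an age was among the widest of all names for the 3 abundant arms at day 0. At day 8 it was not, and that of miR-1a-3p was among the narrowest. The SD of log2(CPM + 1) was 1.14 for miR-206-3p at day 0, place 13 from the widest of 564 names. It was 0.729 for miR-133a-3p (place 26) and 0.653 for miR-1a-3p (place 29). At day 8 the SDs were 0.400 (place 127), 0.276 (place 278) and 0.113 (place 525) in the same order of arms. The highest day 0 library held 7.39 times as much miR-206-3p as the lowest, 3.81 times as much miR-133a-3p and 3.68 times as much miR-1a-3p. At day 8 these ratios were 2.17, 1.79 and 1.25. The difference in spread between the ages was not tested.

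**Figure D2:**
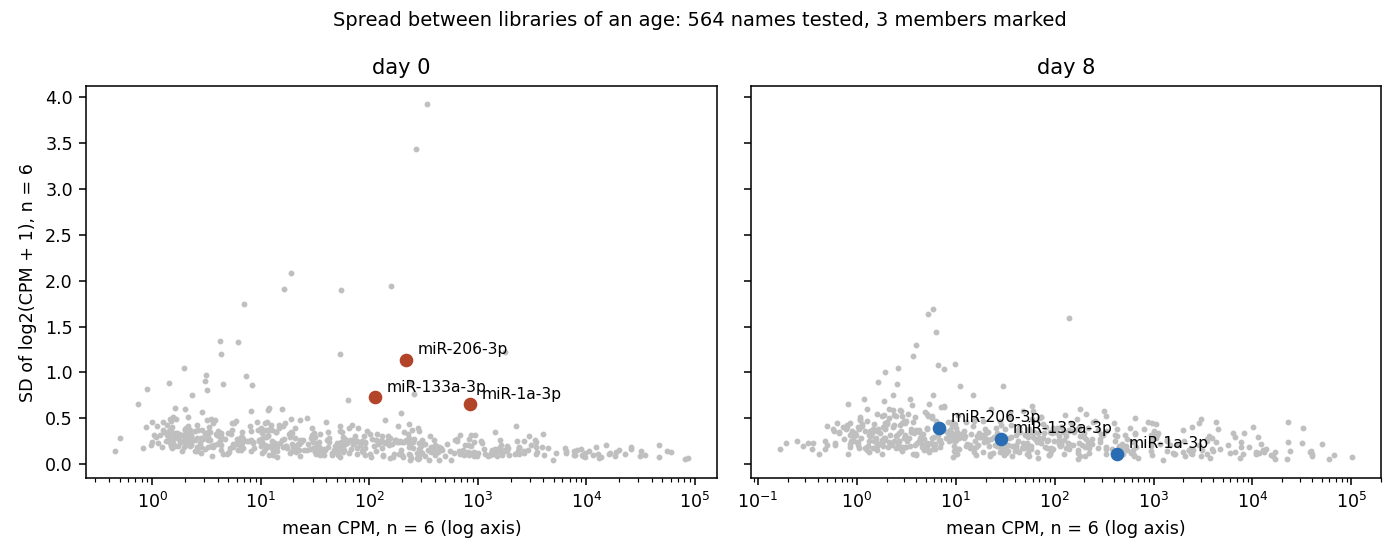
SD of log2(CPM + 1) between the 6 libraries of an age against mean CPM (log axis), for 564 names (grey) and 3 muscle arms (coloured). At day 0 the arms, at 0.653 to 1.14, lie above most names of like level, and at day 8, at 0.113 to 0.400, they lie among them.

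The next comparison took the covariation of the arms over the single libraries of an age. At day 0 the order of the libraries from lowest to highest was replicates 2, 5, 4, 3, 6 and 1 for miR-206-3p. It was the same for its genomic neighbour miR-133b-3p, but on only 5 to 27 reads per library. Replicates 3, 6 and 1 of miR-133b-3p were at 3.20, 3.26 and 3.28 CPM, too close for their order to be certain. miR-133a-3p kept the order of miR-206-3p except that replicates 3 and 4 changed places. For miR-1a-3p the order was replicates 2, 5, 6, 4, 3 and 1, so that replicate 6 was lower in rank than for the other arms.

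Pearson's r of log2(CPM + 1) between the arms at day 0 ran from 0.85 to 0.98 over all 10 pairs (median 0.93, n = 6 libraries). Spearman's rho ran from 0.71 to 1. Between miR-206-3p and miR-133b-3p r was 0.98 (two-sided exact permutation p = 0.00278, the smallest that 720 pairings can give) and rho 1 (exact permutation p = 0.00278). The pairs with miR-133b-3p rest on 5 to 27 of its reads per day 0 library. Between miR-206-3p and miR-133a-3p r was 0.96 (exact permutation p = 0.00833) and rho 0.94 (p = 0.0167). Between miR-206-3p and miR-1a-3p, of the same seed family, r was 0.96 (exact permutation p = 0.0111) and rho 0.83 (p = 0.0583). The pair of miR-1a-3p and miR-133a-3p had an r of 0.94 (exact permutation p = 0.0167) and a rho of 0.77 (p = 0.103). The arms of the miR-133a hairpin had an r of 0.85 (exact permutation p = 0.0694) and a rho of 0.94 (p = 0.0167). The pairs with miR-133a-5p rest on 1 to 14 of its reads per day 0 library.

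In all, 8 of 10 pairs at day 0 had an exact permutation p under 0.05 for r and 6 for rho. After Benjamini-Hochberg adjustment over the 20 pairs of both ages none passed, the smallest adjusted exact permutation p being 0.0556 for r and for rho. The count was 10 with TMM factors, on linear CPM or with a pseudocount of 5, and 6 with a pseudocount of 0.1. It fell to 1 without replicate 1, to 2 without replicate 2 or replicate 5, and to 5 without replicate 4, where 5 libraries allow no p below 0.0167. The values of r themselves stayed between 0.80 and 0.99 for all 10 pairs when any one library was left out. Without replicate 6, the library that stood apart, they were 0.83 to 0.99, and 6 pairs had a p under 0.05. Without the 2 libraries farthest from the median on the first arm of a pair, r was 0.94 for miR-1a-3p with miR-206-3p, 0.92 for miR-1a-3p with miR-133a-3p and 0.91 for miR-133b-3p with miR-206-3p. It was 0.79 for miR-133a-3p with miR-206-3p, and the lowest was 0.30, for miR-133a-5p with miR-133b-3p.

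At day 8 r was 0.00 to 0.93 over the 10 pairs (median 0.48, n = 6) and rho -0.31 to 0.82. miR-206-3p and miR-133a-3p had an r of 0.00 (exact permutation p = 0.964) and a rho of -0.31 (p = 0.564). At day 8 miR-206-3p rests on 24 to 113 reads per library, so counting error is a part of its spread. miR-206-3p and miR-1a-3p had an r of 0.46 (exact permutation p = 0.336) and a rho of 0.49 (p = 0.356). miR-1a-3p and miR-133a-3p had an r of 0.20 (exact permutation p = 0.711) and a rho of 0.09 (p = 0.919). For miR-206-3p and miR-133b-3p r was 0.81 (exact permutation p = 0.0667) and rho 0.82 (p = 0.0667), on 0 to 4 reads of miR-133b-3p per library. The 1 pair with a p under 0.05 for r was miR-1a-3p with miR-133a-5p, again on 0 to 4 reads (r = 0.93, exact permutation p = 0.0278, adjusted 0.0794; rho = 0.77, p = 0.103). The count of such pairs was 0 when replicate 1, 3, 4, 5 or 6 was left out. None of the 10 pairs passed for rho. The day 8 range of miR-1a-3p was 368 to 461 CPM, and whether r differs between the ages was not tested.

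**Figure D3:**
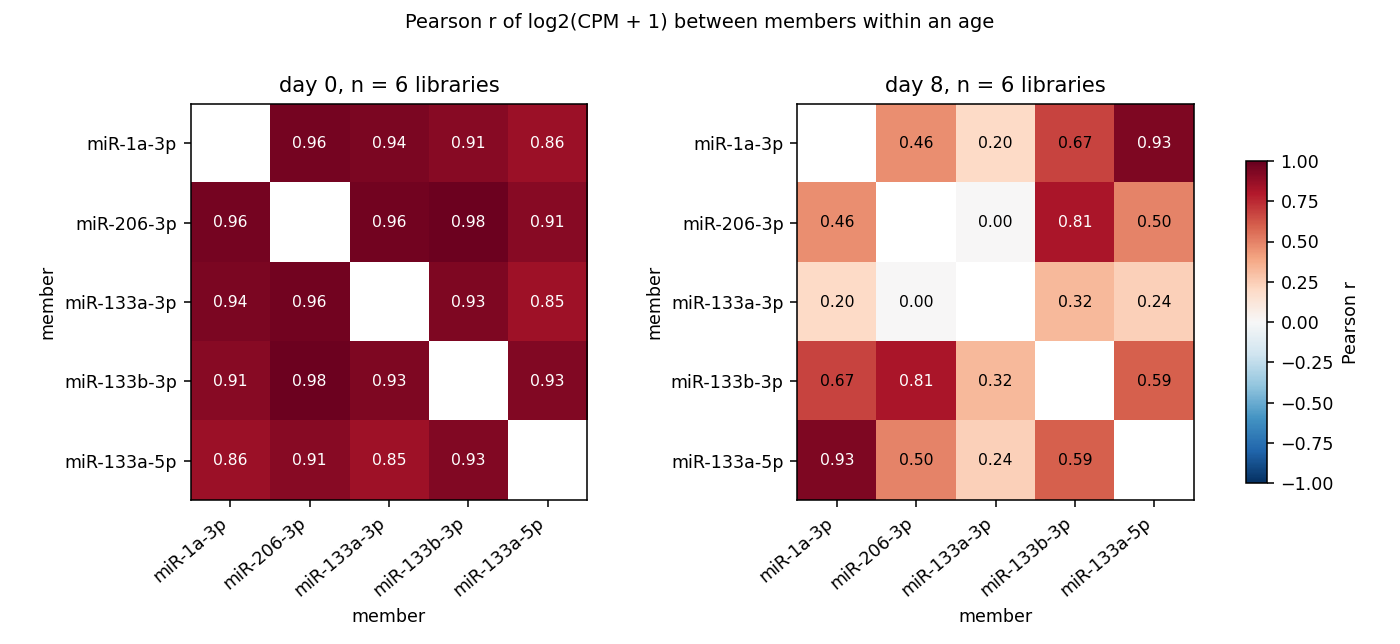
Pearson's r of log2(CPM + 1) for each pair of arms over the 6 libraries of day 0 (left) and of day 8 (right), on a colour scale from -1 to 1. All 10 pairs lie between 0.85 and 0.98 at day 0 and between 0.00 and 0.93 at day 8.

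As a background, r with each of 561 other tested names was taken over the same day 0 libraries. For miR-206-3p its median was 0.02, its 95th percentile 0.74 and its highest value 0.94, below the r of 0.96 with miR-1a-3p and with miR-133a-3p. For miR-133a-3p the highest value among the others was 0.97 (miR-339-5p), above its r of 0.94 with miR-1a-3p. With the age means removed and all 12 libraries in 1 set, miR-1a-3p and miR-133a-3p were in places 1 and 2 of 357 names by r with miR-206-3p (0.92 and 0.85). miR-1a-3p (0.88) and miR-206-3p (0.85) were likewise in places 1 and 2 by r with miR-133a-3p. These places do not hold within day 8 alone. There r with miR-206-3p was 0.46 for miR-1a-3p and 0.00 for miR-133a-3p, and up to 0.94 among the 561 other names. For miR-133a-3p the r with miR-1a-3p was 0.20 within day 8, and the highest among the others was 0.98. These values share libraries and library totals and are given as a description.

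**Figure D4:**
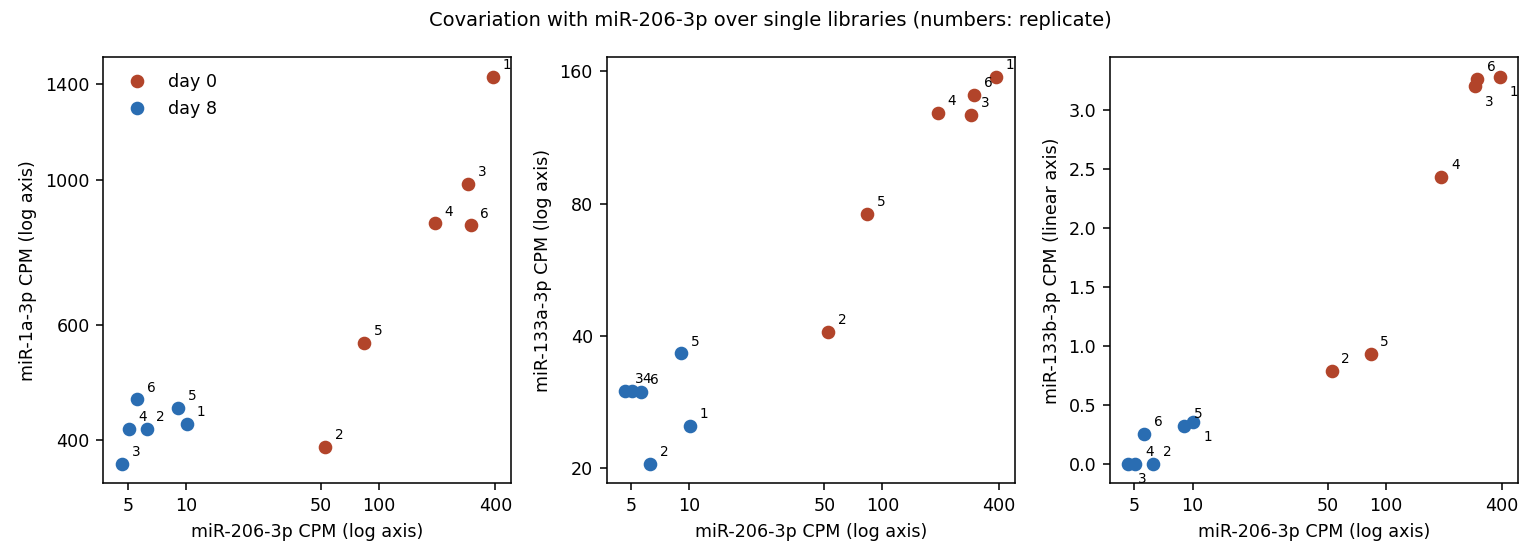
CPM of miR-1a-3p, miR-133a-3p (log axes) and miR-133b-3p (linear axis) against CPM of miR-206-3p (log axis) in single libraries, numbered by replicate, at day 0 (red) and day 8 (blue). At day 0, replicates 2 and 5 are the lowest and replicate 1 the highest in each panel. At day 8 miR-1a-3p stays at 368 to 461 CPM.

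The arms did not vary in fixed proportion at day 0. miR-206-3p stood to miR-1a-3p, its relative in the same seed family, as 0.270, 0.135, 0.293, 0.226, 0.148 and 0.349 in day 0 replicates 1 to 6 (ratio of CPM). The lowest ratios were those of replicates 2 and 5, the libraries with the least of every arm. A straight line through the day 0 libraries gave 2.59 CPM of miR-1a-3p per CPM of miR-206-3p (2.01 to 2.84 with any one library left out). It met 0 CPM of miR-206-3p at 284 CPM of miR-1a-3p (232 to 361), below the day 8 range of 368 to 461 CPM. For miR-133a-3p the line met 0 at 43.6 CPM (36.9 to 65.0), above its day 8 range of 20.5 to 36.5 CPM. Both values at 0 are read off beyond the libraries, since the lowest day 0 level of miR-206-3p was 52.5 CPM. The lines were fitted only to CPM without TMM or other factors, which differ between the ages. These lines rest on 6 libraries and are descriptions.

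Between the ages the proportions changed by more than the spread between libraries. The log2 ratio of miR-206-3p to miR-133a-3p went from 0.77 ± 0.481 at day 0 to -1.95 ± 0.485 at day 8 (SD, n = 6), a difference of -2.73 (two-sided exact permutation p = 0.00216, adjusted 0.00309 over 10 ratios). In CPM, miR-206-3p was 1.10 to 2.49 times miR-133a-3p at day 0 and 0.155 to 0.405 times at day 8. The log2 ratio of miR-206-3p to miR-1a-3p went from -2.15 ± 0.546 to -5.81 ± 0.362, a difference of -3.65 with the same exact permutation p and adjusted p. The log2 ratio of miR-1a-3p to miR-133a-3p went from 2.92 ± 0.255 to 3.85 ± 0.277, a difference of 0.93, also with the same exact permutation p. For each of these ratios the groups did not overlap, with all 6 libraries of an age on 1 side. A ratio within a library does not depend on the scaling of the library total, apart from the 1 CPM added.

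**Figure D5:**
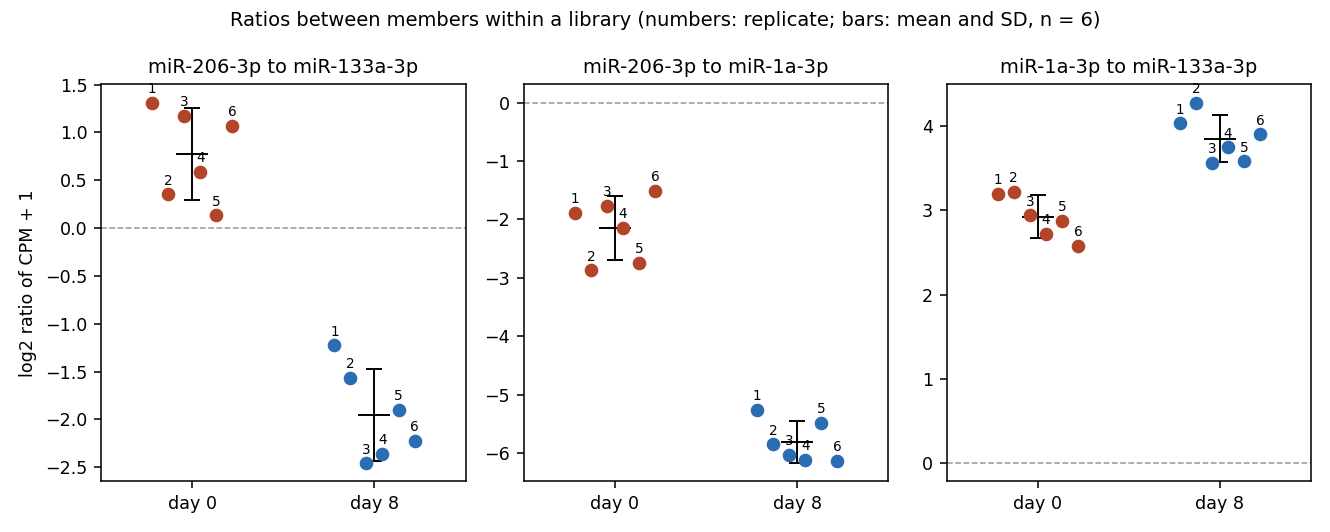
Log2 ratio of CPM + 1 between pairs of arms in each library at day 0 (red) and day 8 (blue), numbered by replicate, with mean and SD (n = 6). The dashed line marks equal levels. miR-206-3p is above miR-133a-3p in all day 0 libraries (0.13 to 1.31) and below it in all day 8 libraries (-2.46 to -1.22).

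Ratios with miR-133a-5p or miR-133b-3p are set largely by the added 1 CPM, so shares of reads are given in their place. miR-133a-5p made up 0.850% of the reads of both arms of miR-133a at day 0 (41 of 4821 reads, 95% Wilson interval 0.627% to 1.15%). At day 8 it made up 0.846% (14 of 1655 reads, 0.505% to 1.41%), so no shift between the arms was detectable at this depth. miR-133b-3p made up 1.05% of the reads of the neighbours miR-133b-3p and miR-206-3p at day 0 (98 of 9326, 0.863% to 1.28%) and 2.46% at day 8 (10 of 407, 1.34% to 4.46%). The day 8 share rests on 10 reads in 3 libraries.

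Of the other striated muscle arms looked up, 11 of 13 were in the table and 2 passed the filter. Both were called lower at day 8 on CPM without TMM or other factors. Of all 564 names tested, 48.2% were called lower and 35.1% had every day 0 library above every day 8 library. miR-499-5p, made from an intron of the myosin gene Myh7b and known from heart and slow muscle, was at 6.94, 13.4, 16.4, 10.8, 7.34 and 13.6 CPM in day 0 replicates 1 to 6. It was at 2.33 to 5.76 CPM at day 8, a log2 change of -1.23 (SE 0.220, limma adjusted p = 0.000188) with no overlap. Its order at day 0 was not that of the 5 arms, since replicate 1, the highest library for all 5, was its lowest. miR-1b-3p, an arm of the miR-1b hairpin, went from 4.23 ± 0.959 to 2.89 ± 0.398 CPM (SD, n = 6; log2 change -0.42, limma adjusted p = 0.0170), with overlap. That change is near the median of -0.34 over all 564 names. With TMM factors miR-1b-3p was at 2.90 to 4.86 CPM at day 0 and at 2.79 to 4.06 CPM at day 8. The passenger arm miR-206-5p had reads in 4 of 6 day 0 libraries (up to 0.711 CPM) and in 0 of 6 day 8 libraries. miR-133b-5p was at 0.133 to 1.30 CPM at day 0 and at 0 to 0.108 CPM at day 8. The remaining arms of the list described here were on 0 to 7 reads per library, without a limma test. miR-208a-5p had a mean of 0.198 ± 0.147 CPM at day 0 and 0.354 ± 0.208 CPM at day 8, miR-1b-5p 0.461 ± 0.239 and 0.478 ± 0.173 CPM, and miR-499-3p 0.0198 and 0.0576 CPM (SD, n = 6). miR-1a-1-5p was at 0 to 0.884 CPM at day 0 and 0 to 0.756 CPM at day 8, with overlap, and miR-1a-2-5p had reads in 1 library of each age.

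The heart list held miR-499-5p and the arms miR-208a-3p and miR-208b-3p, which come from introns of the cardiac myosin genes Myh6 and Myh7. They are shown because the seed is the same in both and 19 of 22 bases agree, so that few bases tell their reads apart.
miR-208a-3p: aUAAGACGagcaaaaagcuugu
miR-208b-3p: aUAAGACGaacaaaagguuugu
miR-208a-3p, known from heart muscle, was at 0.157 to 1.66 CPM at day 0 and at 0 to 0.179 CPM at day 8, with no read in 3 day 8 libraries. miR-208b-3p, known from slow skeletal muscle and heart, was at 0.534 to 1.54 CPM at day 0 and 0.172 to 0.756 CPM at day 8. The summed heart list was at 8.94 to 19.6 CPM at day 0 and 2.71 to 6.12 CPM at day 8.

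Markers of other tissues were set beside the 3 abundant arms over the libraries of an age, as 36 relations with log2 levels of miR-122-5p (liver), miR-451a (red cells), miR-143-3p (smooth muscle), miR-193b-3p (brown fat among other tissues), miR-192-5p (kidney tubule) and the number of reads. None had a two-sided exact permutation p under 0.05 for r or rho, and the smallest adjusted values were 0.944 for r and 0.70 for rho. With 1 library left out the count stayed at 0, except that it was 2 without day 0 replicate 2, 1 without day 0 replicate 6 or day 8 replicate 4, and 3 without day 8 replicate 5. miR-122-5p, which also fell with age, was at 3139, 3284, 2308, 910, 478 and 644 CPM in day 0 replicates 1 to 6. It was thus highest in replicate 2, the library with the least miR-206-3p, and r with miR-206-3p was 0.06 (n = 6, exact permutation p = 0.867; rho = -0.03, p = 1). This value depended on single libraries, at -0.30 to 0.75 with any one left out, and without the 2 libraries farthest in miR-122-5p it was 0.61. For miR-1a-3p at day 0, r with miR-122-5p was 0.14 (exact permutation p = 0.792). It ran from -0.27 to 0.90 with any one left out, and was 0.86 without the 2 farthest. The r of miR-1a-3p with miR-143-3p was 0.38 (exact permutation p = 0.461). It ran from -0.26 to 0.93 with any one left out, and was -0.61 without the 2 farthest. For miR-143-3p and miR-206-3p r at day 0 was 0.25 (exact permutation p = 0.642; rho = 0.26, p = 0.658), and -0.70 without the 2 farthest. For the number of reads it was -0.07 (exact permutation p = 0.892; rho = 0.09, p = 0.919), and 0.39 without the 2 farthest. At day 8 the largest values were those of miR-1a-3p with miR-193b-3p (r = -0.86, exact permutation p = 0.0694; rho = -0.71, p = 0.136) and with the number of reads (r = 0.81, p = 0.108; rho = 0.77, p = 0.103), which went to -0.14 and -0.25 without the 2 farthest libraries.

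The whole marker lists moved as follows from day 0 to day 8. Arms counted as risen or fallen are those called by limma on CPM without TMM or other factors. Of all 564 names tested, 93 were called higher and 272 (48.2%) lower, so such calls are common and the small lists were not tested as sets. With TMM factors 171 names were called higher and 193 lower, so small changes depend on the scaling. Of 7 kidney arms 5 rose and 2 fell, with a median log2 change of 1.38. The tubule arms miR-192-5p (3.52-fold), miR-194-5p (3.31-fold), miR-204-5p (2.85-fold) and miR-30a-5p (2.60-fold) rose most, as ratios of mean CPM, while the striated muscle arms fell. miR-10a-5p, the most abundant of the 7 arms, went from 59790 to 50937 CPM, with overlap (log2 change -0.24, limma adjusted p = 0.0427). With TMM factors it was not lower, at 44647 to 61775 CPM at day 0 and 48617 to 71569 CPM at day 8. The part of these changes in the lower CPM of the muscle arms was not tested. Of 4 smooth muscle and stroma arms 0 fell and 2 rose, with summed levels of 32760 to 38418 and 40883 to 46961 CPM, so that no smooth muscle arm was called lower. Of 2 liver arms 2 fell, from 481 to 3296 down to 15.2 to 333 CPM. Of 4 arms of the brown fat list 0 fell and 3 rose, and of 3 tested red cell arms 0 passed in either direction. Of 2 tested pancreas arms 1 rose, with summed levels of 54.3 to 72.4 and 68.8 to 137 CPM, and the 1 tested nerve arm did not pass. Whether the striated muscle arms came from cells within the kidney or from muscle taken along with it was not tested.

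The names outside the 5 arms whose levels, with age means removed, were most like those of miR-206-3p over 12 libraries were miR-411-3p (r = 0.75), miR-380-5p (0.74), miR-379-5p (0.63), miR-369-5p (0.62) and miR-106a-5p (0.62). Those most like miR-133a-3p were miR-487b-3p (0.83), miR-299a-5p (0.83), miR-382-5p (0.76), miR-299a-3p (0.75) and miR-434-3p (0.75). Of these 10 names, 8 are listed on chromosome 12 between 109594565 and 109743452 (GRCm38.p6), in the imprinted Dlk1-Dio3 region. miR-487b-3p has no listed position. The 2 muscle arms are themselves correlated (r = 0.85), so the 2 sets of names are not independent. Of the 355 names compared that are not muscle arms, 312 had a listed position and 29 of these (9.29%) lay in the same stretch. Within day 8 alone miR-299a-5p had an r of 0.98 with miR-133a-3p, whereas the r of miR-379-5p with miR-206-3p was 0.77 within day 0 and -0.47 within day 8. Within day 8 the r with miR-206-3p was 0.46 for miR-411-3p, -0.04 for miR-380-5p and 0.55 for miR-369-5p.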

How the data were processed

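Per the labels' protocols, the RNA came from a NucleoSpin miRNA kit and the libraries from a QIAseq miRNA kit. FastQC is named in the submitters' processing notes. The sources used here do not give an aligner, build, miRBase release or use of molecular identifiers. The authors deposited CPM, and each library sums to 1000000. Within a library all values (100.0%) were whole multiples of 1 read, within 0.001 of a read, which gave back the reads. No library copied another of the same age (lowest chi-square per degree of freedom 51.7). Libraries of different ages were not compared in this way.

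In R 4.3.3, limma 3.58.1 (trend option) was fitted to log2(CPM + 1) of the 564 names that reached 1 CPM in 6 or more libraries, with Benjamini-Hochberg adjustment over all of them. Replicates were numbered in the order of the series. Ratios and single levels were tested by two-sided exact permutation in scipy 1.17.1. Correlations were tested by two-sided exact permutation computed directly over all pairings. edgeR 4.0.16 on the recovered reads called 368 names and DESeq2 1.42.0 called 369. The fit was also run on simulated data with as many names raised as lowered, unlike these data. That run therefore does not bear on how calls depend on the scaling. Members, lists and tests were chosen with earlier results of these data known. Besides the arms and lists, the text names the 5 names most correlated with miR-206-3p and with miR-133a-3p at a mean CPM of at least 10; other names were chosen after their values were seen.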

Additional observations from a re-analysis of the deposited data

Results flagged for a closer look

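Among 26 sets of 6 values examined, 2 had a library far from the rest, where chance gives about 1 in 20. miR-451a, the red cell miRNA, was at 619.8 CPM in day 0 replicate 6, against 100.3 to 191 CPM in the other day 0 libraries. miR-193b-3p was at 3.88 CPM in day 8 replicate 3, against 0.764 to 1.80 CPM in the other day 8 libraries. None of the 5 muscle arms, and none of the 3 ratios between miR-206-3p, miR-1a-3p and miR-133a-3p, had such a library.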

How the results depend on the processing

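The falls of miR-206-3p and miR-133a-3p kept their direction and call under all 22 alternatives run. The count of called names was 327 to 375 with a library left out, 402 with no filter and 258 with a CPM of at least 10. With a library left out the log2 change was -4.89 to -4.32 for miR-206-3p, -2.08 to -1.70 for miR-133a-3p and -1.09 to -0.71 for miR-1a-3p. The call of miR-1a-3p was lost with TMM (-0.50), RLE (-0.47) and upper quartile factors (-0.32), and kept with edgeR (-0.62) and DESeq2 (-0.59). For miR-133a-5p the CPM difference of -0.75 became -0.92 to -0.59 with a library left out, and the call was lost in 8 of 12 cases. The 3 ratios kept their calls in 14 of 14 alternatives each. Pairs with a p under 0.05 at day 0 numbered 1 to 6 with a library left out and 10 with TMM factors, linear CPM or pseudocount 5, and at day 8 they numbered 0 to 1, and 0 with TMM factors or rho. Relations with other tissues and depth at a p under 0.05 numbered 2 with TMM factors and 0 to 3 with a library left out. At day 8 the near-zero r of miR-133a-3p and miR-206-3p turned to -0.00109 (pseudocount 0.1), -0.17 (TMM), -0.31 (rho) and -0.98 (without the 2 farthest libraries, n = 4), and ran from -0.50 to 0.30 with a library left out. That of miR-1a-3p and miR-133a-3p turned to -0.0250 (TMM), with a range of -0.0760 to 0.62, and that of the miR-133a arms to -0.0860 (without the 2 farthest), with a range of -0.28 to 0.59. The cause was not tested. Without day 0 replicate 6 and day 8 replicate 3 together, which was tried after the data were seen, 351 names were called. No paired analysis was made, because the labels give no litter or other link between the ages. The sample numbers are not shared between the ages, and the labels do not say what they stand for.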
